A study of Homo sapiens with 10 samples.

Results

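The transcripts of 34 aminoacyl-tRNA synthetase genes were followed in QGP-1 cells, a line established from a human pancreatic neuroendocrine tumor. They comprise 19 genes of the cytosolic enzymes and 15 genes of the mitochondrial enzymes, out of 35606 gene IDs listed, and were taken by gene name from both expression tables. Names ending in 2 mark the mitochondrial enzymes. The files use older symbols, so that AARS stands for the gene now called AARS1. VARS and VARS2 were left out by rule because values in the MHC region jump between replicates, and the sgNC samples show this with 33.6 and 0.826 CPM for VARS. All 34 genes had a mean of at least 1 CPM (CPM scales a gene's estimated reads to the library's size) in each table and were tested.

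RNA-seq was performed on 10 samples, 2 in each of 5 groups. In one experiment, cells carried a lentiviral dCas9-KRAB repressor with either a control guide (sgNC, genotype WT in the labels) or a single guide against PIKFYVE (sgPIKFYVE-1), and infected cells were selected with puromycin. PIKFYVE encodes a lipid kinase of endosomes and lysosomes. In the other experiment, QGP-1 cells labelled WT received DMSO, 1 µM apilimod, an inhibitor of PIKfyve, or 100 nM Torin-1, an inhibitor of the mTOR kinase. The labels give 24 h for both drugs. A shorter time is stated elsewhere by the study, and the labels describe depletion of ribosomal RNA whereas the methods describe oligo(dT) selection. Nothing says whether replicates came from separate cultures, so p-values measure only the spread between these samples, which may be technical.

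An aminoacyl-tRNA synthetase joins an amino acid to the tRNAs that carry it to the ribosome, and cells use separate enzymes, all encoded in the nucleus, for the cytosol and for mitochondria. The cytosolic enzymes fall into class I and class II, which differ in the fold of the catalytic domain, and some of them assemble with the scaffold proteins AIMP1, AIMP2 and EEF1E1 into the multi-synthetase complex. GARS and KARS each encode both the cytosolic and the mitochondrial enzyme. When amino acids run short, the transcription factor ATF4 is known to bind C/EBP-ATF response elements and to induce many of the cytosolic synthetase genes together with genes of amino acid synthesis and transport.

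The core of that element, TGATGNAA on either strand, was searched in RefSeq promoter windows of GRCh38.p14 that span 250 bases before to 50 bases after each listed start. A window was found for 30 of the 34 genes, and DARS, LARS, YARS and AARS2 had no entry. The letters occurred in 7 of 16 cytosolic genes (43.8%), in 1 of 14 mitochondrial genes (7.14%) and in 1217 of 27305 genes overall (4.46%). Among genes tested in the knockdown, 289 of 10534 held a match (2.74%). A gene with several listed starts was counted once if any window matched. The stretches that hold a match, in 7 cytosolic genes and 1 mitochondrial gene, are printed below to show the letters and where they lie. Each is read on the strand of its gene, with the matched letters in capitals.
AARS: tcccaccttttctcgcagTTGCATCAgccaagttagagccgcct
CARS: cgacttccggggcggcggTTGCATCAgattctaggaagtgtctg
GARS: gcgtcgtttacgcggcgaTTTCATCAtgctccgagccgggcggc
IARS: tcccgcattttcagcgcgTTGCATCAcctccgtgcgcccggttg
MARS: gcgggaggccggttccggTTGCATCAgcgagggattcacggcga
NARS: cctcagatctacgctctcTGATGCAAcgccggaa
TARS: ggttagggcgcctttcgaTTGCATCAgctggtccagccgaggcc
YARS2: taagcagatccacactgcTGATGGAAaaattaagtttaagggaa

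In GRCh38.p14 these stretches lie at chr16:70289668-70289711 on the reverse strand for AARS, chr11:3057400-3057443 on the reverse strand for CARS and chr7:30594827-30594870 on the forward strand for GARS. The others lie at chr9:92293685-92293728 (IARS, reverse), chr12:57488046-57488089 (MARS, forward), chr18:57621807-57621840 (NARS, reverse), chr5:33440949-33440992 (TARS, forward) and chr12:32756069-32756112 (YARS2, reverse). The first matched base stood 187 bases before the start in AARS, 33 before the second listed start in GARS, 13 before in IARS, 4 before in MARS and 2 before in CARS. It stood 2 bases after the start in TARS, 14 after in NARS and 197 before in YARS2. A match is a description of the letters and not a binding site, and no match says only that these letters are absent from the window.

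All samples expressed the defining neuroendocrine markers CHGA, CHGB, SYP, INSM1, ENO2, SCG2 and SCG3, with a lowest single value of 71.5 CPM (INSM1). Their sum was 7205 to 7501 CPM with sgNC and 6145 to 6401 CPM with sgPIKFYVE-1. It was 7275 to 7278 CPM with DMSO, 6238 to 6445 CPM with apilimod and 9232 to 9459 CPM with Torin-1. The fall with sgPIKFYVE-1 lay mostly in CHGB, at 1555 and 1619 CPM against 2477 and 2586 CPM with sgNC. Log2 fold changes in the knockdown were -0.67 for CHGB, -0.48 for ENO2 and -0.19 for SYP. Those of CHGA, INSM1, SCG2 and SCG3 lay between -0.07 and 0.03. The part of these markers in the results was not tested. The leukocyte marker CD3E was listed at 0 in all 10 samples and PTPRC reached at most 0.987 CPM, whereas LYZ was 15.5 and 18.4 CPM with sgPIKFYVE-1 against 6.32 and 4.81 CPM with sgNC. Summed over the 3 leukocyte markers the values were between 16.0 and 18.8 CPM with sgPIKFYVE-1 and between 5.03 and 6.61 CPM with sgNC, and the part of such cells in the results was not tested. The 3 fibroblast markers summed to between 1.81 and 9.92 CPM over all samples, and the 2 endothelial markers to between 0.895 and 3.93 CPM. The steps between low values gave an estimated depth between 9.12 and 13.2 M reads, at which 3 reads correspond to between 0.227 and 0.329 CPM (counting error only). In bulk RNA, fewer cells of a kind and less RNA per cell cannot be told apart.

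Summed over the 19 cytosolic genes, expression was 2582 and 2586 CPM with sgNC and 3103 and 3222 CPM with sgPIKFYVE-1. In the separately normalized drug table the sums were 3081 and 3081 CPM with DMSO, 3318 and 3263 CPM with apilimod and 2579 and 2674 CPM with Torin-1. Both knockdown samples and both apilimod samples lay above their controls, and both Torin-1 samples lay below. The 15 mitochondrial genes summed to 510 and 513 CPM with sgNC, 588 and 566 CPM with sgPIKFYVE-1, 589 and 591 CPM with DMSO, 572 and 592 CPM with apilimod and 542 and 546 CPM with Torin-1. Their apilimod and DMSO samples overlapped, and the other contrasts did not. These sums are descriptive and carry no test.

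**Figure D1:**
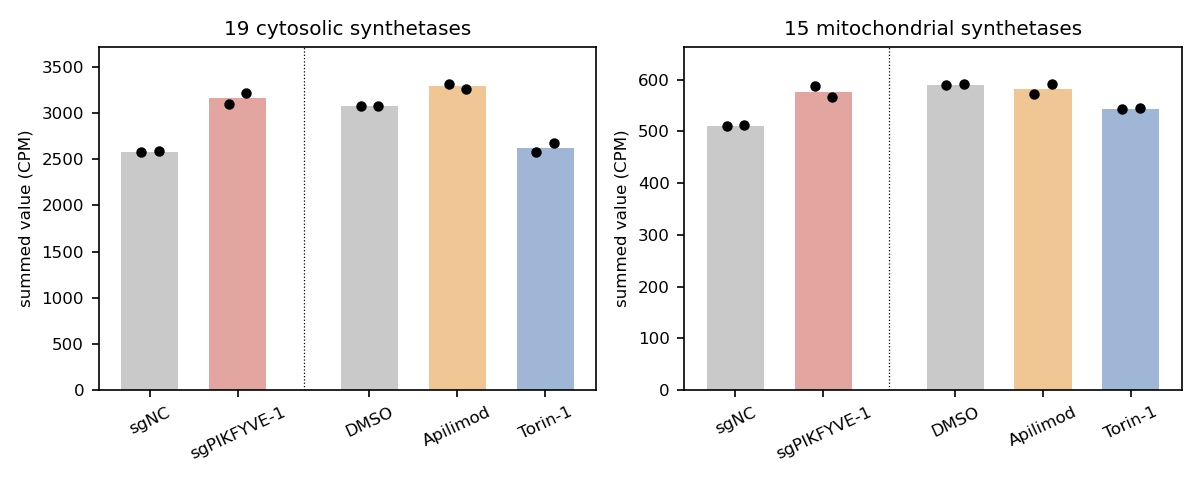
Summed values (CPM) of the 19 cytosolic synthetase genes (left) and the 15 mitochondrial ones (right) in the 5 groups. Bars are means of 2 samples, points are samples, and the dotted line separates the tables, which were normalized apart. The cytosolic sum was above sgNC in both sgPIKFYVE-1 samples and below DMSO in both Torin-1 samples.

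Per kilobase of merged exons (GENCODE 29), the median level of the cytosolic genes was 25.3 CPM per kb with sgNC and 39.4 CPM per kb with DMSO. The mitochondrial genes had medians of 5.87 and 8.09 CPM per kb in the same groups. NARS, the asparaginyl enzyme, was the highest cytosolic gene in both controls, at 49.5 and 61.9 CPM per kb, and IARS2, for isoleucine in mitochondria, was the highest mitochondrial gene at 36.2 and 38.0 CPM per kb. CARS, the cytosolic cysteinyl enzyme, was the lowest of all, at 0.109 and 0.259 CPM per kb. This is low for a gene that every cell uses, and whether the quantification assigned all reads of CARS to it was not tested, so its level and changes are given as listed.

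The knockdown was checked on its target. PIKFYVE (chr2:208266267-208358751, forward strand, GRCh38) was 101 and 97.5 CPM with sgNC and 10.9 and 12.5 CPM with sgPIKFYVE-1, which limma estimated as -2.98 ± 0.098 on the log2 scale (adjusted p = 1.22e-14). Estimates are given as the log2 fold change ± its standard error where an error is shown. All fold changes here are on the scale of log2(CPM + 1), which understates the change of low genes, and adjusted p-values are Benjamini-Hochberg values over all genes tested in the table.

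PIKFYVE knockdown raised most cytosolic synthetase transcripts by modest amounts. Of the 19, 14 were higher with an adjusted p under 0.05, 0 were lower and 5 did not pass. The background was 21.6% of 13591 genes called higher and 20.9% called lower. Without the variance trend, 9 of the 19 were called higher, beside 1776 of the 13591 genes. At an unadjusted p under 0.05, 1 cytosolic gene (DARS) was lower. The median log2 fold change of the cytosolic genes was 0.30, between -0.16 and 0.65, beside a median over all genes tested of 0.00. Of the 15 mitochondrial genes, 3 were higher, 0 were lower by limma and 12 did not pass, with a median of 0.13, and 0 were lower at an unadjusted p under 0.05. Without sgPIKFYVE-1 replicate 1 that median was 0.08.

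WARS, the tryptophanyl enzyme (chr14:100333788-100376805, reverse strand), was 86.1 and 98.3 CPM with sgPIKFYVE-1 and 59.1 and 57.1 CPM with sgNC. Its log2 fold change of 0.65 ± 0.075 (adjusted p = 9.25e-07) was the highest among cytosolic genes. YARS, the tyrosyl enzyme (chr1:32775237-32818153, reverse strand), was 151 and 155 CPM with the knockdown and 106 and 109 CPM with sgNC. In both genes the knockdown samples lay well above both control samples, and YARS changed by 0.51 ± 0.057 (adjusted p = 7.16e-07).

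Next came enzymes for asparagine, threonine and glycine. NARS was 273 and 287 CPM with sgPIKFYVE-1 and 204 and 201 CPM with sgNC, and TARS was 271 and 289 CPM against 199 and 208 CPM. GARS was 223 and 239 CPM with the knockdown and 167 and 175 CPM with sgNC. The groups did not overlap in any of them, as in 70.6% of all genes tested, counting either direction. Log2 fold changes were 0.46 for NARS (adjusted p = 3.67e-07), 0.46 for TARS (adjusted p = 7.77e-07) and 0.43 for GARS (adjusted p = 2.74e-06), with standard errors between 0.050 and 0.054.

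The other 9 cytosolic genes that passed had smaller changes. Both subunits of the phenylalanyl enzyme rose, FARSA by 0.37 and FARSB by 0.35 on the log2 scale. AARS (alanine) and MARS (methionine) each rose by 0.33, IARS (isoleucine) by 0.30, KARS (lysine) by 0.28 and SARS (serine) by 0.23. The smallest called changes were 0.16 for EPRS, which charges both glutamate and proline (adjusted p = 0.0104), and 0.15 for HARS, the histidyl enzyme (adjusted p = 0.0458). EPRS did not pass without sgNC replicate 1 (adjusted p = 0.0585), and HARS did not pass without either sgNC sample or without sgPIKFYVE-1 replicate 1 (adjusted p between 0.119 and 0.215).

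The 5 cytosolic genes that did not pass were RARS at 0.13 (arginine, adjusted p = 0.0803), LARS at 0.07 (leucine), QARS at 0.00 (glutamine), DARS at -0.16 (aspartate, adjusted p = 0.083) and CARS. CARS was 0.990 and 1.26 CPM with the knockdown, and with sgNC it was 2.19 CPM in one sample and listed at 0 in the other. QARS was flat in the samples themselves, at 101 and 97.8 CPM with the knockdown and 96.9 and 101 CPM with sgNC. Without sgPIKFYVE-1 replicate 2, DARS passed at -0.23 (adjusted p = 0.0253), and without sgNC replicate 1 CARS passed (adjusted p = 0.0441), then set against a lone sample listed at 0.

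The rise was spread over both structural classes. Of class I, 5 of 9 were higher with a median of 0.25, and of class II, 9 of 10 were higher with a median of 0.34. Beside these sub-lists, 21.6% of all genes tested were called higher. EPRS, which charges both glutamate and proline, was counted in class I only. Of the 8 enzymes of the multi-synthetase complex, 4 (EPRS, IARS, KARS and MARS) were higher and the median was 0.14. Of the 11 cytosolic genes outside the complex, 10 were higher and the median was 0.37. The difference between these sub-lists was not tested. Of the 13 cytosolic genes called higher that have a promoter window, 6 held the TGATGNAA letters (46.2%), and of the 3 not called with a window, 1 did (33.3%).

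Among mitochondrial enzymes the methionyl and asparaginyl genes stood out. MARS2 (chr2:197705369-197708387, forward strand) was 44.4 and 42.1 CPM with sgPIKFYVE-1 and 24.6 and 21.0 CPM with sgNC, and its log2 fold change of 0.90 ± 0.104 (adjusted p = 1.0e-06) was larger than that of any cytosolic member. NARS2 was 39.1 and 36.8 CPM with the knockdown and 24.02 and 25.3 CPM with sgNC, a log2 fold change of 0.60 ± 0.0996 (adjusted p = 7.29e-05). PARS2, the prolyl enzyme, was 15.3 and 10.8 CPM against 10.1 and 7.68 CPM. The PARS2 groups nearly touched, and its log2 fold change of 0.50 ± 0.182 (adjusted p = 0.034) did not pass without sgNC replicate 2 (adjusted p = 0.245) or sgPIKFYVE-1 replicate 1 (adjusted p = 0.342).

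The other 12 mitochondrial genes had log2 fold changes between -0.07 (CARS2) and 0.30 (WARS2, adjusted p = 0.0643). LARS2 was at 0.26 (adjusted p = 0.0744), YARS2 at 0.23 and AARS2 at 0.18. WARS2 passed without sgPIKFYVE-1 replicate 2 (adjusted p = 0.044) and LARS2 without sgPIKFYVE-1 replicate 1 (adjusted p = 0.026). IARS2, the highest mitochondrial gene by level, was 161 and 156 CPM with the knockdown against 151 CPM in both sgNC samples, a log2 fold change of 0.07 that did not pass. In 12 pairs the names differ only by the ending 2. The cytosolic gene had the larger log2 fold change in 9 of them, and the mitochondrial one for leucine, methionine and asparagine. The 9 include CARS, whose estimate rests on an sgNC sample listed at 0. Genes for phenylalanine, glutamate and proline (FARSA, FARSB and EPRS in the cytosol, FARS2, EARS2 and PARS2 in mitochondria) were not paired. For methionine the values were 0.33 (MARS) and 0.90 (MARS2), and for threonine 0.46 (TARS) and 0.05 (TARS2).

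**Figure D2:**
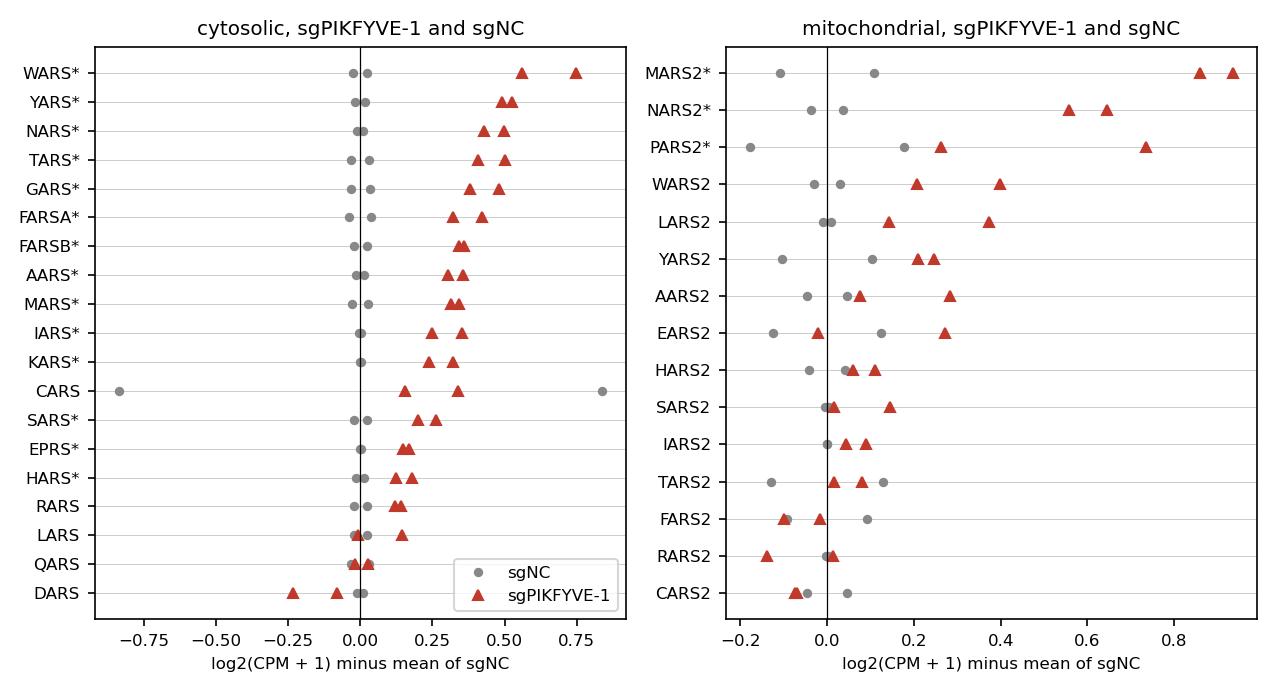
Each sample's log2(CPM + 1) minus the mean of the sgNC samples, for cytosolic genes (left) and mitochondrial genes (right), ordered by log2 fold change. Circles are the 2 sgNC samples, triangles the 2 sgPIKFYVE-1 samples, and an asterisk marks an adjusted p under 0.05. The 14 called cytosolic genes have both triangles to the right of both circles, where 70.6% of all genes tested had no overlap between the groups in either direction, and CARS shows the widest spread between sgNC samples.

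Apilimod raised few synthetase transcripts. Of the 19 cytosolic genes 3 were higher, 0 were lower and 16 did not pass, and of the 15 mitochondrial genes 0 were called in either direction by limma. The background was 5.75% of 13520 genes higher and 2.79% lower, that is 778 and 377 genes, which became 658 and 536 after quantile normalization. The total of 1155 calls fell to 656 without DMSO replicate 1, 597 without DMSO replicate 2 and 689 without apilimod replicate 1. At an unadjusted p under 0.05, CARS was lower among cytosolic genes, but it passed the filter of 1 CPM only through the DMSO samples. At the same unadjusted threshold, 1 mitochondrial gene (NARS2) was higher and 0 were lower. Medians were 0.00 for cytosolic and 0.02 for mitochondrial genes, beside -0.01 over all genes tested, and after quantile normalization they were -0.03 and -0.01.

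AARS, the alanyl enzyme (chr16:70252295-70289543, reverse strand), was 287 and 261 CPM with apilimod and 182 and 184 CPM with DMSO. The estimate for AARS was 0.58 ± 0.056 (adjusted p = 7.81e-06). YARS was 158 and 152 CPM with apilimod and 127 and 119 CPM with DMSO, and TARS was 306 and 303 CPM against 242 and 246 CPM. The drug samples lay above both controls in all 3 genes, where 50.7% of all genes tested had no overlap in either direction. Log2 fold changes were 0.34 for YARS (± 0.063, adjusted p = 0.00324) and 0.32 for TARS (± 0.051, adjusted p = 9.96e-04). YARS did not pass without DMSO replicate 2 (0.29, adjusted p = 0.0727), and neither passed without the variance trend (adjusted p = 0.0877 and 0.0853).

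The genes that led the knockdown did not all change with apilimod. WARS was 63.6 and 61.4 CPM with apilimod and 70.2 and 63.4 CPM with DMSO, so 1 apilimod sample lay above the lower DMSO sample, and its log2 fold change was -0.09 (adjusted p = 0.549). MARS2 was 33.5 and 37.2 CPM against 32.8 and 33.3 CPM (0.09, adjusted p = 0.728), and NARS2 was 42.9 and 40.1 CPM against 32.2 and 37.0 CPM (0.26, adjusted p = 0.18). SARS was at 0.15 (adjusted p = 0.148), GARS at 0.11, NARS at 0.09 and IARS at 0.06, with apilimod samples above DMSO in each but no call. Of the 19 cytosolic genes, 7 were higher and 2 lower without overlap, where 50.7% of all genes tested had no overlap in either direction. CARS did not pass at -0.95 (adjusted p = 0.0927), and was at -1.39 without DMSO replicate 1. It passed the filter of 1 CPM only through the DMSO samples, in which it was high, so a fall against DMSO was favoured in advance. The knockdown and apilimod experiments stand in separate tables with separate controls, and the difference between their effects was not tested.

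Torin-1 lowered 12 of the 19 cytosolic synthetase transcripts, 2 were higher and 5 did not pass, against a background of 21.8% of 13520 genes lower and 16.6% higher. The lower genes were 9 without DMSO replicate 2, 9 without Torin-1 replicate 1 and 8 without the variance trend. The median log2 fold change was -0.26, between -0.98 and 0.24, beside -0.01 over all genes tested, and the median was -0.16 without Torin-1 replicate 1. Of the 15 mitochondrial genes 5 were lower, 1 was higher and 9 did not pass, with a median of -0.25. The lower mitochondrial genes were 2 without either DMSO sample, 2 without the filter on low values and 3 without the variance trend. One cytosolic gene, CARS, had passed the filter only through the DMSO samples, and without it 11 of 18 were lower with a median of -0.23.

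GARS was 135 and 140 CPM with Torin-1 and 207 and 219 CPM with DMSO, a log2 fold change of -0.63 ± 0.055 (adjusted p = 1.13e-06). YARS was 80.6 and 84.7 CPM with Torin-1 and 127 and 119 CPM with DMSO (-0.56, adjusted p = 1.19e-05). TARS was 167 and 177 CPM against 242 and 246 CPM (-0.51, adjusted p = 4.52e-06). In these 3 genes every Torin-1 sample lay below every DMSO sample by more than the spread within either group. Of all genes tested, 69.3% had no overlap between Torin-1 and DMSO in either direction. FARSA was 66.9 and 69.2 CPM with Torin-1 and 102 and 90.0 CPM with DMSO (-0.49, adjusted p = 1.80e-04).

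CARS had the lowest fitted value, -0.98 ± 0.322 (adjusted p = 0.0273), from 1.06 and 0.477 CPM with Torin-1 and 1.54 and 3.66 CPM with DMSO. Its mean over the table was 1.39 CPM and 0.777 CPM without the DMSO samples, so it passed the filter on low values only through the group in which it was high, and it did not pass the test without DMSO replicate 2 (-0.54, adjusted p = 0.322) or Torin-1 replicate 2 (-0.74, adjusted p = 0.153).

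The other cytosolic genes called lower were MARS at -0.45, HARS at -0.37, IARS and NARS at -0.30 each, RARS at -0.26, LARS at -0.20 and EPRS at -0.13 (adjusted p = 0.0418). RARS, LARS and EPRS each lost the call when one of several single samples was left out. Among these, RARS was 104 and 127 CPM with Torin-1 against 135 and 140 CPM, and without Torin-1 replicate 1 it was at -0.11 (adjusted p = 0.251). LARS without DMSO replicate 1 was at -0.16 (adjusted p = 0.125), and without Torin-1 replicate 1 its adjusted p was 0.0621. EPRS had an adjusted p of 0.103 without DMSO replicate 1, 0.271 without DMSO replicate 2 and 0.176 without Torin-1 replicate 1, and RARS had 0.055 and 0.121 without the DMSO samples.

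QARS, the glutaminyl enzyme, moved the other way, at 109 and 103 CPM with Torin-1 and 94.1 and 85.2 CPM with DMSO. Its log2 fold change of 0.24 ± 0.070 (adjusted p = 0.0149) did not pass without DMSO replicate 2 (0.17, adjusted p = 0.183) or Torin-1 replicate 1 (0.20, adjusted p = 0.0858). SARS was also higher, at 179 and 174 CPM against 156 and 153 CPM (0.19, adjusted p = 0.0208), and did not pass without either DMSO sample or without Torin-1 replicate 1 (adjusted p = 0.0815, 0.126 and 0.086). AARS, DARS, WARS and KARS lay between -0.08 and 0.05. AARS was 189 and 188 CPM with Torin-1 and 182 and 184 CPM with DMSO. FARSB, at -0.18, was just outside the threshold (adjusted p = 0.0506) and passed without DMSO replicate 1 (adjusted p = 0.0367) or Torin-1 replicate 2 (adjusted p = 0.0284).

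By structural class, 7 of 9 class I genes and 5 of 10 class II genes were lower, or 6 of 8 class I genes without CARS. Beside these sub-lists, 21.8% of all genes tested were lower and 16.6% higher. Of the 8 enzymes of the multi-synthetase complex, 5 were lower and QARS was higher, with a median of -0.17. Of the 11 outside it, 7 were lower and SARS was higher, with a median of -0.37, or 6 of 10 without CARS, with a median of -0.33.

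In the mitochondrial set, MARS2 was again the most changed gene. It was 19.01 and 23.9 CPM with Torin-1 and 32.8 and 33.3 CPM with DMSO, a log2 fold change of -0.61 ± 0.115 (adjusted p = 8.96e-04). CARS2, the cysteinyl enzyme, was 18.5 and 18.2 CPM against 22.7 and 27.3 CPM (-0.42, adjusted p = 0.0139). LARS2, the leucyl enzyme, was 24.6 and 18.7 CPM against 27.8 and 28.5 CPM (-0.37, adjusted p = 0.0476). The groups did not overlap in any of the 3, but the spread within Torin-1 for LARS2 and within DMSO for CARS2 was wide. CARS2 did not pass without DMSO replicate 2 (-0.29, adjusted p = 0.16), and LARS2 did not pass without either DMSO sample (adjusted p = 0.118 and 0.149) or without Torin-1 replicate 2 (-0.19, adjusted p = 0.359).

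YARS2, the tyrosyl enzyme, was at -0.36 (adjusted p = 0.00984) and AARS2, the alanyl enzyme, at -0.30 (adjusted p = 0.0309). YARS2 did not pass without either DMSO sample (adjusted p = 0.0519 and 0.0595), and AARS2 without DMSO replicate 1 (adjusted p = 0.22) or Torin-1 replicate 2 (adjusted p = 0.143). WARS2, the tryptophanyl enzyme, was the gene called higher, at 26.5 and 34.5 CPM with Torin-1 and 24.3 and 21.9 CPM with DMSO. Its Torin-1 samples differed from each other by more than the gap to DMSO, and the call at 0.37 (adjusted p = 0.0313) was lost without Torin-1 replicate 2 (0.19, adjusted p = 0.307) or DMSO replicate 2 (adjusted p = 0.175). EARS2 was at -0.25 (adjusted p = 0.0889) and SARS2 at -0.41 (adjusted p = 0.0686), and both passed without Torin-1 replicate 1. NARS2 was at -0.22 (adjusted p = 0.121) and passed without Torin-1 replicate 2 (adjusted p = 0.0447).

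**Figure D3:**
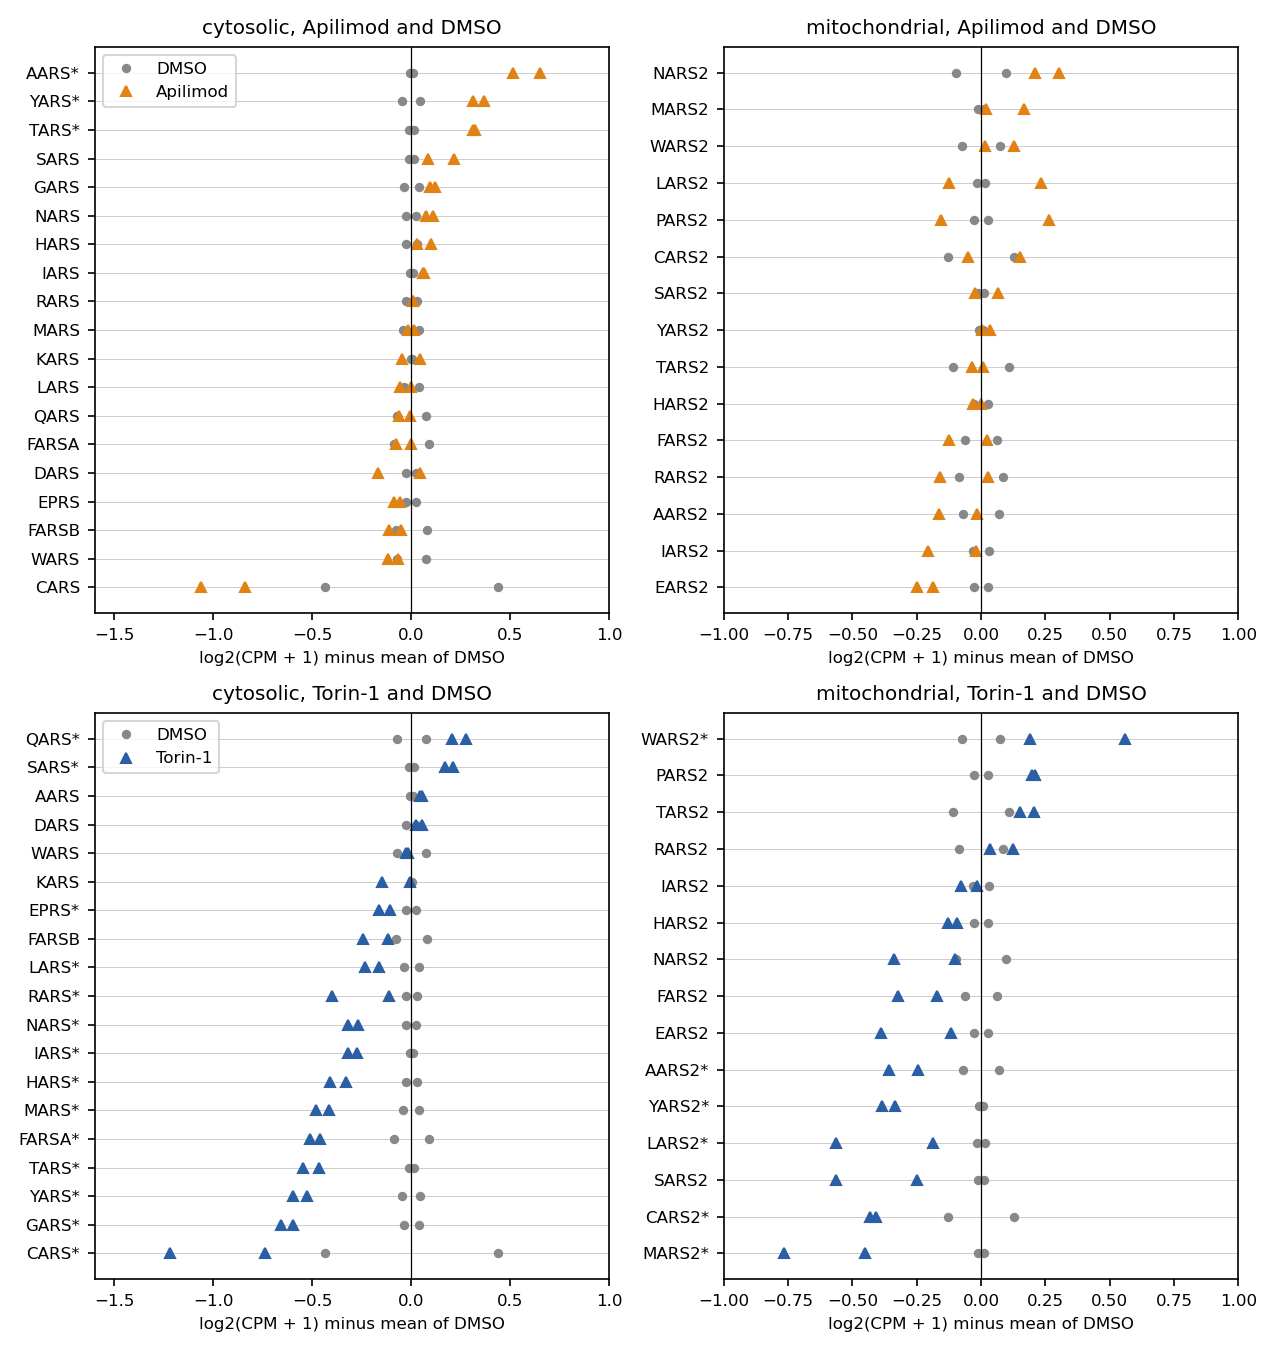
Each sample's log2(CPM + 1) minus the mean of the DMSO samples, for apilimod (top) and Torin-1 (bottom), cytosolic genes left and mitochondrial genes right. Circles are the 2 DMSO samples, triangles the 2 treated samples, and an asterisk marks an adjusted p under 0.05. With apilimod only AARS, YARS and TARS carry an asterisk. With Torin-1 most triangles lie left of the circles, where 69.3% of all genes tested had no overlap with DMSO in either direction.

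The drugs were also compared directly, since each was tested against the same DMSO samples. In apilimod against Torin-1, 11 of the 19 cytosolic genes were higher with apilimod and 1 was lower, with a median log2 fold change of 0.26, where 26.2% of 13520 genes were called higher and 20.5% lower. Of the mitochondrial genes 6 were higher, 0 were lower by limma and 2 (TARS2 and WARS2) were lower at an unadjusted p under 0.05, with a median of 0.20. The widest gap was in YARS, at 158 and 152 CPM with apilimod and 80.6 and 84.7 CPM with Torin-1 (0.90 ± 0.063, adjusted p = 7.03e-08). TARS followed at 0.82 (adjusted p = 1.85e-08), GARS at 0.73 (adjusted p = 1.24e-07) and AARS at 0.53 (adjusted p = 3.50e-06). For YARS and TARS the drugs had been called on opposite sides of DMSO, for GARS only Torin-1 had been called, and for AARS only apilimod.

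MARS and FARSA were 0.45 higher with apilimod, HARS 0.44, NARS 0.39, IARS 0.36, RARS 0.26 and LARS 0.17. RARS and LARS lost the call without Torin-1 replicate 1 (adjusted p = 0.189 and 0.0996) or apilimod replicate 1 (0.0514 and 0.105), and RARS also without apilimod replicate 2 (0.0526). QARS was lower with apilimod at -0.28 (adjusted p = 0.00519), with 89.0 and 85.8 CPM against 109 and 103 CPM. The mitochondrial genes called higher were MARS2 at 0.70, NARS2 at 0.48, CARS2 at 0.47, LARS2 at 0.43, SARS2 at 0.43 and YARS2 at 0.38. SARS2 was at the edge of the threshold (adjusted p = 0.0484), and the call was lost without any one of 5 of the 6 samples (adjusted p between 0.0615 and 0.281). LARS2 lost it without Torin-1 replicate 2 (adjusted p = 0.21) or apilimod replicate 2 (0.225), and CARS2 without apilimod replicate 1 (0.0634).

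**Figure D4:**
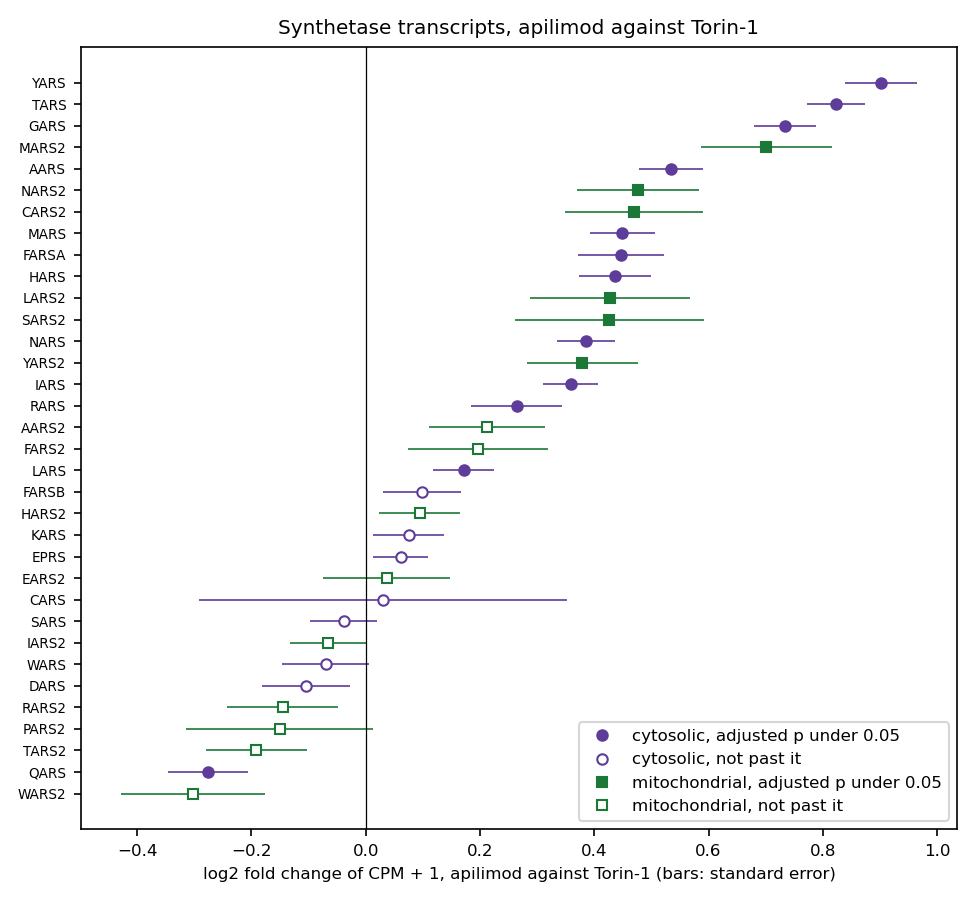
Log2 fold change of CPM + 1 between apilimod and Torin-1 for all 34 genes, with bars for the standard error. Filled symbols have an adjusted p under 0.05, circles are cytosolic and squares mitochondrial genes. YARS, TARS and GARS had the highest values, and QARS was the filled symbol left of 0.

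Knockdown and Torin-1 have separate controls, so their calls can be set beside each other. Of the 14 cytosolic genes higher in the knockdown, 9 were lower with Torin-1 (64.3%), which is 75% of the 12 genes Torin-1 lowered, or 81.8% of the 11 without CARS. They were EPRS, FARSA, GARS, HARS, IARS, MARS, NARS, TARS and YARS. Of all 19 cytosolic genes, 73.7% were higher in the knockdown and 63.2% lower with Torin-1. The shared calls were thus near these shares of the class alone, and a link gene by gene was not tested. Over all 13235 genes tested in both tables, 1373 of 2894 genes higher in the knockdown were lower with Torin-1 (47.4%), or 46.5% of those Torin-1 lowered. SARS was higher in both, and WARS, KARS and FARSB rose in the knockdown without a call for either drug. Of the mitochondrial genes, MARS2 was higher in the knockdown and lower with Torin-1, 4 others (AARS2, CARS2, LARS2 and YARS2) were lower with Torin-1 only by call, and 7 were not called in any comparison with a control.

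The 3 cytosolic genes that apilimod raised, AARS, TARS and YARS, were all among the 14 raised by the knockdown (21.4% of these). The knockdown raised 73.7% of all 19 cytosolic genes, and apilimod 15.8%. Over all genes, 491 of 2894 genes higher in the knockdown were higher with apilimod (17%), or 63.5% of those apilimod raised. DARS was the only cytosolic gene not called in any of the 3 comparisons with a control, at -0.16, -0.07 and 0.04.

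**Figure D5:**
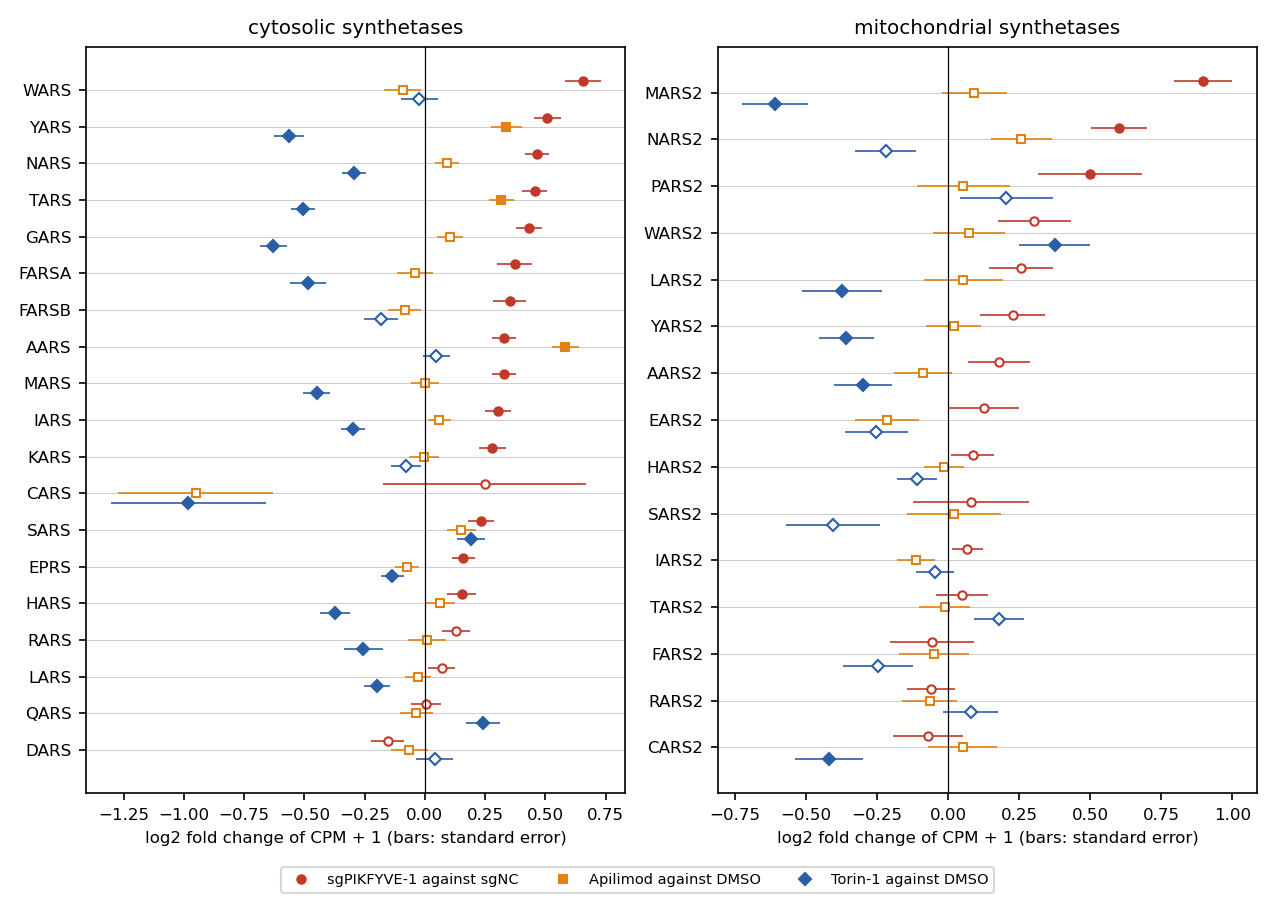
Log2 fold change of CPM + 1 with its standard error for each gene in the 3 comparisons with a control, cytosolic left and mitochondrial right. Filled symbols have an adjusted p under 0.05. Circles (knockdown) lie mostly right of 0 and diamonds (Torin-1) mostly left, and WARS shows a filled circle only.

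Other genes of tRNA charging were read from the same fits. Of 14 partners, 5 were higher in the knockdown, 0 were lower by limma and 9 did not pass, with a median of 0.22, and 1 (TARSL2) was lower at an unadjusted p under 0.05. Over all genes tested, 21.6% were called higher and 20.9% lower. AIMP2, a scaffold of the multi-synthetase complex, was 84.5 and 94.0 CPM with sgPIKFYVE-1 and 55.7 and 55.2 CPM with sgNC (0.67, adjusted p = 4.67e-07), and EEF1E1, another of its scaffolds, was at 0.50 (adjusted p = 2.45e-04). XPOT, which exports tRNA from the nucleus, was at 0.35 (adjusted p = 4.69e-05). GATB and QRSL1, subunits of the amidotransferase that makes mitochondrial glutaminyl-tRNA, were at 0.48 and 0.34. AIMP1, the remaining scaffold, was at -0.07 and did not pass.

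With Torin-1, 6 partners were lower, 1 was higher and 7 did not pass, beside 21.8% of all genes lower and 16.6% higher. AIMP2 was 70.5 and 66.5 CPM with Torin-1 and 109 and 107 CPM with DMSO (-0.65, adjusted p = 4.88e-06). EEF1E1 was at -0.58, XPOT at -0.42, DTD1, an editing enzyme that removes D-amino acids from tRNA, at -0.37, AIMP1 at -0.35 and GATC, the remaining amidotransferase subunit, at -0.23. SEPSECS, which makes selenocysteinyl-tRNA, was higher, at 51.1 and 55.9 CPM against 32.2 and 31.4 CPM (0.73, adjusted p = 3.78e-05). With apilimod, 0 partners were called by limma, and 2 (SEPSECS and TRNT1, which adds the CCA end to tRNA) were lower at an unadjusted p under 0.05.

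Of 12 genes of the ATF4 program outside the synthetases, 10 were higher in the knockdown with a median of 0.50, beside 21.6% of all genes called higher. ATF4 itself was 255 and 262 CPM with sgPIKFYVE-1 and 253 and 271 CPM with sgNC (-0.02, adjusted p = 0.794). PHGDH and PSAT1, enzymes of serine synthesis, were at 0.91 and 0.83, and DDIT3 and ATF3, stress-induced transcription factors, at 0.98 and 0.996. With apilimod 5 were higher, namely TRIB3 (1.47), ATF3 (1.25), DDIT3 (0.92), ATF5 (0.66) and ATF4 (0.29), and 7 did not pass, beside 5.75% of all genes called higher.

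With Torin-1, 5 of the 12 genes of that program were lower and 2 were higher, beside 21.8% of all genes lower and 16.6% higher. PSAT1 was at -0.89, PHGDH at -0.88, ATF5 at -0.64, ASNS, the asparagine synthetase of amino acid metabolism, at -0.55 and SHMT2 at -0.41. ATF4 was 296 and 285 CPM with Torin-1 and 214 and 221 CPM with DMSO (0.42, adjusted p = 2.03e-05), and DDIT3 was at 0.61. The mRNA of ATF4 was higher with both drugs and not called in the knockdown.

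Some values rest on exons that genes share. DDIT3 lies on the opposite strand and shares 355 exon bases with MARS (5.05% of the MARS exons), HARS and HARS2 share 437 bases on opposite strands (5.56% and 11.7%), and SARS2 shares 1492 bases on the same strand with AC011455.2 (46.2% of its exons). Whether the counting used strand is not given in the sources used here, and reads of such bases could be split either way.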

How the data were processed

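The authors trimmed the reads with Trimmomatic, summed transcript estimates to genes and applied the TMM method of edgeR before testing with DESeq2. The aligner or quantifier is not given in the sources used here, and the submitters' processing notes name hg38. The deposited tables, one per experiment, hold a normalized signal in CPM relative to the effective library size the authors derived, and samples sum to between 972493 and 1024330. The planned test, written for plain CPM, was kept. Of the low values, 70.4% to 74.4% came out as whole reads (within 0.02 reads). Counts could therefore not be rebuilt, and a log-scale test was used throughout. Between replicates, the median chi-square was 1.87 to 2.85 times that of Poisson sampling.

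Genes averaging at least 1 CPM over a table were tested with limma 3.58.1 (R 4.3.3, variance trend) on log2 values with a pseudocount of 1, with Benjamini-Hochberg adjustment and a threshold of 0.05. Each fit took every sample of its table (4 and 6). Lists are described by counts and medians. One further gene of tRNA charging was left out of the list of 14 partners and is not reported here. Values in every sample are given for PIKFYVE and, in each comparison with a control, for the 5 cytosolic and 3 mitochondrial genes that changed most among those called without overlap, plus the gene called in the opposite direction; other genes shown by sample were chosen after their values were seen. Members, lists and tests were chosen with earlier results of these data known. Positions and exon lengths are from GENCODE 29 (35547 of 35606 IDs matched without version), and promoters from RefSeq GRCh38.p14. Alternatives changed the pseudocount to 0.1, dropped the filter, the variance trend or the third drug group, quantile-normalized the values, added the replicate number as a block, or left out each sample in turn. The procedure was tested on simulated data. Plots used matplotlib 3.10.9 (Python 3.11.15).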

Additional observations from a re-analysis of the deposited data

How the results depend on the processing

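Without the variance trend, the called cytosolic genes were 9 in the knockdown, 1 with apilimod and 8 with Torin-1, and the called mitochondrial genes 3 with Torin-1. Without the filter on low values, 2 mitochondrial genes were called with Torin-1. Leaving out each sample in turn gave 13 to 15 cytosolic and 2 to 4 mitochondrial calls in the knockdown, 2 to 4 and 0 with apilimod, 9 to 14 and 2 to 8 with Torin-1, and 10 to 12 and 4 to 7 in apilimod against Torin-1. With Torin-1 the cytosolic count was 9 without DMSO replicate 2 or Torin-1 replicate 1, and the mitochondrial count was 3 without DMSO replicate 1 and 2 without DMSO replicate 2. Where a sample is left out, its lone partner is assumed to vary like the other groups. Over all genes, the knockdown gave 3709 calls without the trend, beside 5772. Apilimod gave 565 without the filter and 466 without the trend, beside 1155. Torin-1 gave 3906 without the filter and 3924 without the trend, beside 5202. Leaving out DMSO replicate 1, DMSO replicate 2 or apilimod replicate 1 gave 656, 597 and 689 apilimod calls, of which 149, 134 and 204 were lower, beside 377. The cause was not tested.

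Genes called under every alternative were AARS, FARSA, FARSB, GARS, MARS, NARS, TARS, WARS, YARS, MARS2 and NARS2 in the knockdown and AARS with apilimod. With Torin-1 they were FARSA, GARS, HARS, IARS, MARS, NARS, TARS, YARS and MARS2, all lower. In apilimod against Torin-1 they were 9 of 11 cytosolic genes called higher, QARS, and MARS2, NARS2 and YARS2. Over all members and alternatives, 0 values of a called gene reversed. The share of all genes tested that were called under every alternative was not counted, so these lists have no background beside them.

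Same-numbered samples shared little: their deviations correlated at 0.037 between sgNC and sgPIKFYVE-1 and 0.0483 between DMSO and Torin-1. The correlations were 0.0426 between DMSO and apilimod and 0.104 between the drugs. Whether the replicate number marks a weak shared effect was not tested. With the replicate number as a block, 14 cytosolic and 3 mitochondrial genes were called in the knockdown and 4 and 0 with apilimod. The apilimod calls then included SARS, higher at 0.15 (adjusted p = 0.044 by limma). The counts were 15 and 6 with Torin-1 and 12 and 7 between the drugs. Over all genes, the block gave 6111 calls in the knockdown, 1756 with apilimod, 5903 with Torin-1 and 6960 between the drugs. Without it they were 5772, 1155, 5202 and 6312. At these depths, 1 of the values of the 34 genes lay under 3 reads, that of CARS listed at 0 in sgNC replicate 2.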
